A study of Mus musculus with 6 samples.

Results

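The genes described here are those of fatty acid β-oxidation and of the peroxisome in mouse lung interstitial macrophages. They were chosen by symbol alone: acyl-CoA dehydrogenases (Acad genes), carnitine palmitoyltransferases (Cpt1 and Cpt2 genes), hydroxyacyl-CoA dehydrogenases (Hadh genes), peroxisomal acyl-CoA oxidases (Acox genes), thiolases (Acaa1 and Acaa2 genes), enoyl-CoA hydratases and isomerases (Ech and Eci genes), Ehhadh and the peroxins (Pex genes). Of the 21965 genes of the count table, 46 matched, 29 of them enzymes and 17 peroxins. Of the 46, 42 had enough counts to be tested, and the other 4 (Cpt1b, Eci3, Acox2 and Pex5l) are given by their levels only.

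RNA was sequenced from interstitial macrophages of C57Bl/6 mice that were 6 to 8 weeks old. The WGP group had 1 mg of WGP, a β-glucan preparation, by intraperitoneal injection, and the PBS group had phosphate-buffered saline in the same way. In both groups treatment lasted 6 days and lungs were taken on day 7, and the cells were obtained from lung suspensions with fluorescent antibodies, which the labels do not name. Each group had 3 libraries. Every sample title, of WGP and PBS libraries alike, also carries the word Control, which the titles do not explain. Nothing in the labels tells if a library holds cells of 1 animal or of pooled animals, so the p-values below measure only the spread between these libraries. The study addressed β-glucan training of lung interstitial macrophages before metastasis.

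Fatty acids enter mitochondria as carnitine esters and are then shortened by repeated rounds of dehydrogenation, hydration, a further oxidation and thiolysis. Peroxisomes run a parallel pathway for very long and branched chains, in which acyl-CoA oxidases take the place of the dehydrogenases and release hydrogen peroxide. Peroxins build the organelle and import its enzymes, and many of the enzyme genes are known targets of the PPAR family of nuclear receptors. In the lung, lipid handling under PPARγ is a known trait of alveolar macrophages, which clear surfactant.

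Library totals ran from 18254678 to 20346517 counts. Markers of several cell types differed between the groups, and these lists are set beside the results below. Of all genes tested, 15.2% rose and 15.7% fell at an adjusted p under 0.05 (edgeR). Of 21 alveolar macrophage markers, 18 fell and 0 rose (also 0 rose at an unadjusted p under 0.05, in DESeq2 and in limma-voom), with summed levels of 1752 to 2289 CPM (read counts scaled to the library size) in WGP libraries and 6367 to 9579 CPM in PBS libraries. Kcnip4, alone in that list, was at 0 in all 3 WGP libraries, and it had few reads in PBS replicates 1, 2 and 3 too (22, 20 and 26 counts). Of 14 classical monocyte markers, 13 rose, with sums of 12473 to 15961 CPM in WGP libraries and 5650 to 6426 CPM in PBS libraries. Of 15 epithelial markers tested, 11 fell and 1 rose, and their sums were 98.0 to 157 CPM in WGP libraries and 405 to 864 CPM in PBS libraries. Of 16 endothelial markers, 11 fell, with sums of 217 to 280 CPM in WGP libraries and 558 to 566 CPM in PBS libraries. Of 20 interstitial macrophage markers, the labelled cell type, 4 rose and 6 fell, and their sums were 6986 to 8402 CPM in WGP libraries and 8765 to 10037 CPM in PBS libraries. Of 13 neutrophil markers tested, 1 rose, and their sums of 1695 to 3304 CPM in WGP libraries and 1341 to 2972 CPM in PBS libraries overlapped (0 rose when PBS replicate 1 was left out, 2 rose when PBS replicate 2 was, and 0 rose and 3 fell when PBS replicate 3 was). Without PBS replicate 1 or PBS replicate 2, 11 alveolar markers fell, and without WGP replicate 3, 12 did. The fallen epithelial markers numbered 6 without PBS replicate 1 and 7 without WGP replicate 2, WGP replicate 3 or PBS replicate 3, while the fallen interstitial markers numbered 13 without WGP replicate 1 and 9 without WGP replicate 3. Summed Y-linked levels were 207 to 229 CPM in WGP libraries, and 114, 180 and 10.6 CPM in PBS replicates 1, 2 and 3. Every PBS library lay below every WGP library in this sum, so Y-linked level and treatment cannot be fully told apart. The part of these markers in the results below was not tested.

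After WGP the oxidation enzymes shifted in both directions, with a larger number lower, while 1 of the 16 peroxins tested passed. Of the 42 genes tested, 11 changed at an adjusted p under 0.05 (26.2%), against 31.0% of all 12305 genes tested. 9 fell (21.4%, against 15.7% of all genes) and 2 rose (4.76%, against 15.2% of all genes). The median log2 fold change of the 42 was -0.08, beside -0.02 for all genes tested. The share that changed was near that of all genes tested, so it is no result about these genes as a set. Among the 26 enzymes tested, 8 fell and 2 rose, with a median of -0.19. Among the 16 peroxins tested, 1 fell and 0 rose (2 were higher at an unadjusted p under 0.05, and 0 rose in DESeq2 and in limma-voom), with a median of 0.01. Levels did not overlap between the groups for 18 of the 42 (42.9%), against 48.1% of all genes tested, with 11 lower (against 24.9% of all genes) and 7 higher (against 23.2%). At least 2-fold falls were called for Ehhadh and Acaa1b alone, against 9.22% of all genes, and no rise of that size was called, against 1.32%.

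Without PBS replicate 1, PBS replicate 2, or both PBS replicates 1 and 3, 5 of the 42 fell and 1 rose. 6 fell without WGP replicate 3. The calls of Ehhadh, Ech1, Acads and Acadm held in all 17 alternatives, and those of Acaa1b, Cpt2, Hadha, Pex13, Acox3 and Echs1 were lost in at least 1 of them.

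**Figure D1:**
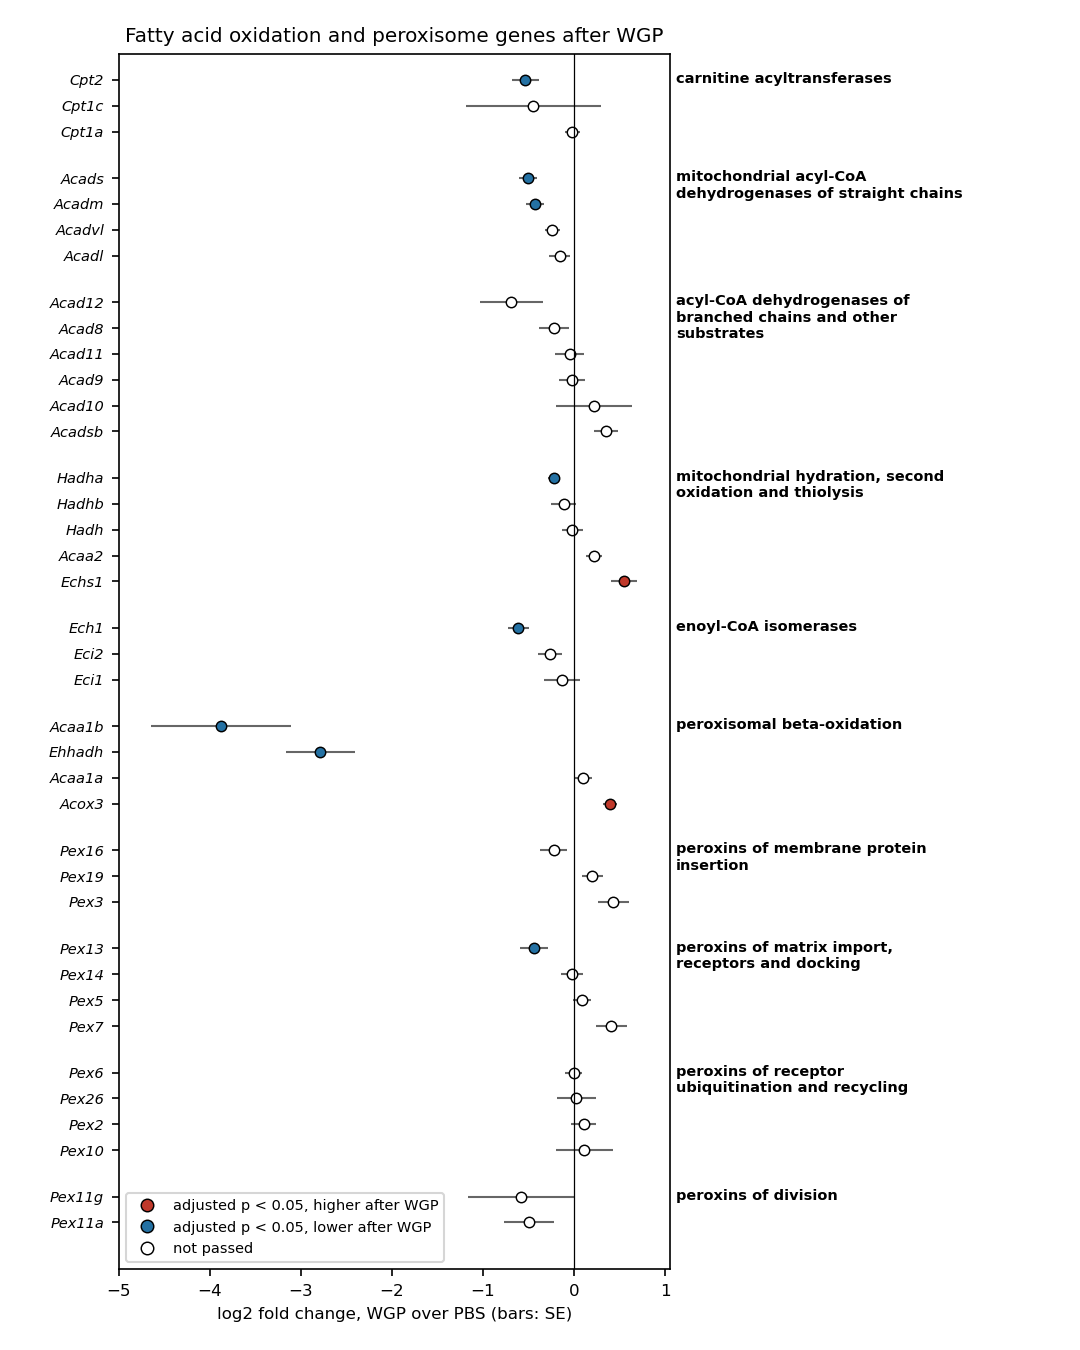
Log2 fold change of WGP over PBS for 38 of the 42 genes tested, grouped by role, with bars of 1 SE, where filled points have an adjusted p under 0.05. Ehhadh (-2.79) and Acaa1b (-3.88) lie far to the left, the other changed genes drawn lie between -0.61 and 0.55, and the peroxins drawn lie on both sides of 0, between -0.58 and 0.43.

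The peroxisomal β-oxidation genes held the largest changes. Ehhadh and Acaa1b fell, Acox3 rose and Acaa1a did not pass. Ehhadh (ENSMUSG00000022853, chr16:21761287-21787807, GRCm38, minus strand) encodes the peroxisomal bifunctional enzyme that hydrates and then oxidises the chain. Its level was 1.07, 0.792 and 1.64 CPM in WGP replicates 1, 2 and 3, against 9.13, 9.71 and 5.42 CPM in PBS replicates 1, 2 and 3. Every WGP library lay below every PBS library, and among the PBS libraries replicate 3 was the lowest. The fold change was -2.79 ± 0.38 on the log2 scale (SE, n = 3 each, adjusted p = 0.00042, edgeR).

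Acaa1b (ENSMUSG00000010651, chr9:119148023-119157093, GRCm38, minus strand) encodes a peroxisomal thiolase, which cleaves the shortened chain. It stood at 0.225, 3.49 and 2.63 CPM in WGP libraries, against 35.3, 38.4 and 20.5 CPM in PBS libraries. The groups were far apart, and WGP replicate 1 was almost without reads, with 4 counts, beside 66 and 48 in WGP replicates 2 and 3. The log2 fold change was -3.88 ± 0.77 (adjusted p = 0.019), and the adjusted p was 0.061 without WGP replicate 3, 0.069 without PBS replicate 1 and 0.060 without PBS replicate 2. Acaa1a encodes the other peroxisomal thiolase, and its gene lies 182582 bases from that of Acaa1b. Of the 50-base words of Acaa1b transcripts, 30.5% also occur in Acaa1a, so the division of reads between the pair is uncertain. Acaa1a was at 68.4, 70.9 and 68.8 CPM in WGP libraries and at 58.1, 71.5 and 64.1 CPM in PBS libraries. Its groups overlapped, and it missed the threshold (log2 fold change 0.10 ± 0.09, adjusted p = 0.42).

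Acox3 (ENSMUSG00000029098, chr5:35583040-35615352, GRCm38, plus strand) encodes an oxidase that acts on branched chains. It rose, with 187, 174 and 192 CPM in WGP libraries and 141, 149 and 130 CPM in PBS libraries. All 3 WGP libraries were above all 3 PBS libraries (log2 fold change 0.40 ± 0.08, adjusted p = 0.0030), and the adjusted p was 0.085 without PBS replicates 1 and 3. Acox2, an oxidase of bile acid side chains, had counts in 1 library only, PBS replicate 2, with 3 counts.

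In the PBS libraries, Ehhadh and Acaa1b were each lowest in replicate 3, with 114 and 432 counts. Replicates 1 and 2 were close, at 188 and 187 counts of Ehhadh and 727 and 739 of Acaa1b, so their order is uncertain. The summed alveolar macrophage markers stood at 9579, 8165 and 6367 CPM in replicates 2, 1 and 3, also lowest in replicate 3. The epithelial sum (864, 495 and 405 CPM) and the neutrophil sum (2972, 2182 and 1341 CPM), in the same order of replicates, were lowest there too. The endothelial sum hardly differed between PBS libraries (558 to 566 CPM), and the interstitial and monocyte sums were highest in replicate 3. In the WGP libraries Acaa1b, with only 4, 66 and 48 counts in replicates 1, 2 and 3, had the order of the alveolar sum, and Ehhadh had another. In a bulk sample, fewer cells of a type and less RNA per cell cannot be told apart, and the part of RNA of these other cell types in the differences was not tested.

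**Figure D2:**
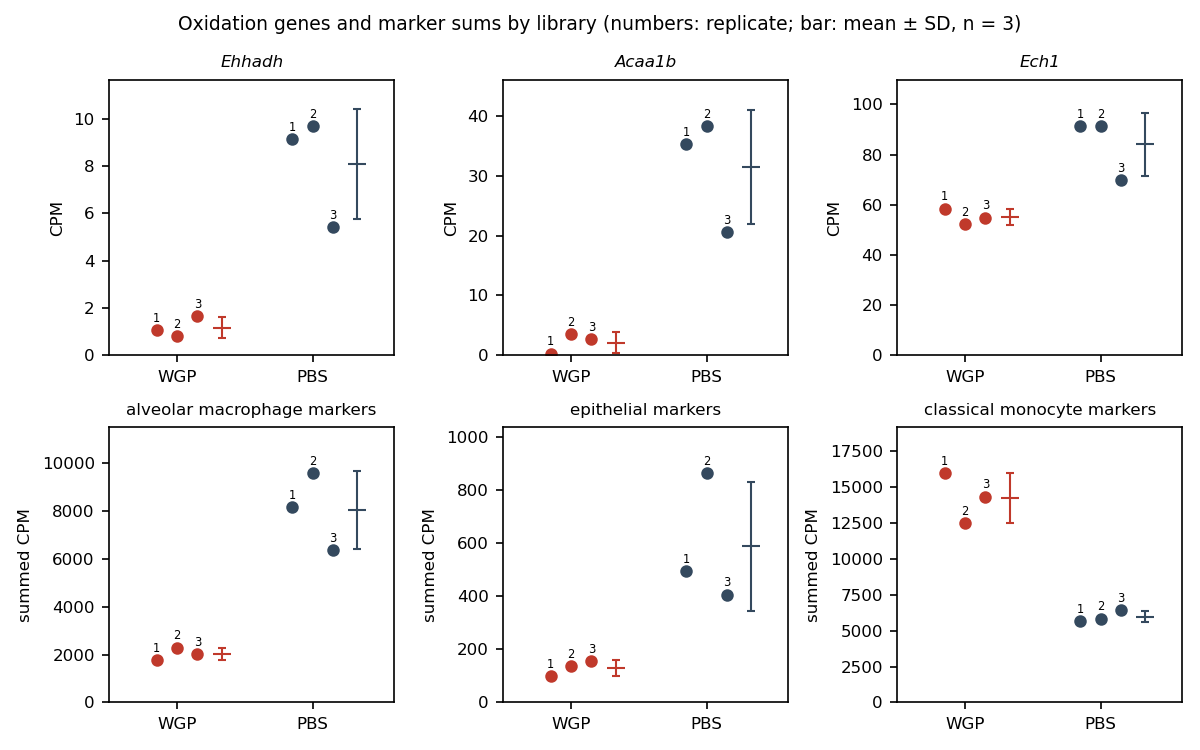
Levels of Ehhadh, Acaa1b and Ech1 (CPM, upper panels) and summed levels of alveolar macrophage, epithelial and classical monocyte markers (summed CPM, lower panels) in each of the 3 WGP and 3 PBS libraries, with replicate numbers and bars of mean ± SD. The 3 genes and the alveolar and epithelial sums were lower in every WGP library than in any PBS library, and the monocyte sum was higher.

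Promoters were read for 36 of the 46 genes, in 40 windows of 250 bases before the RefSeq start (GRCm38.p6). Letters were searched on both strands for the direct repeat that PPAR and RXR pairs are known to bind, AGGTCA and AGGTCA with 1 base of any kind between, and for a single AGGTCA, which the repeat itself contains. The other 10, among them Acaa2, Acad9, Cpt1b, Pex2, Pex5l and Pex19, were not read. The repeat was in 0 of the 40 windows, beside 11 of all 32851 windows of the table (0.0335%). The single element was in 6 of the 40 (15%), beside 14.0% of all windows. The 6 were those of Acadm, Acadvl, Cpt1a, Cpt1c, Echs1 and Pex11g. A match is a string of letters and not a known site, and a missing match says only that the letters are not in this window. The windows of Ehhadh and of the 2 peroxisomal thiolases are shown because these genes held the largest falls and the near copy that did not pass, and that of Acox3 because it rose. Those of Acadm, which fell, and Echs1, which rose, are shown because each holds the element, in capitals (TGACCT where it lies on the opposite strand). Each is written 5′ to 3′ on the strand of its gene.
Ehhadh, chr16:21787835-21788084, minus strand: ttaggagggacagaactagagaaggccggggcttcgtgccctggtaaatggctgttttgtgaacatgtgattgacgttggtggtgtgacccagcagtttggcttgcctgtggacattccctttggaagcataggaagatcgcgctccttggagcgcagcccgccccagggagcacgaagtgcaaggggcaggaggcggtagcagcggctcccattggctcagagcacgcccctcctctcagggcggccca
Acaa1b, chr9:119157094-119157343, minus strand: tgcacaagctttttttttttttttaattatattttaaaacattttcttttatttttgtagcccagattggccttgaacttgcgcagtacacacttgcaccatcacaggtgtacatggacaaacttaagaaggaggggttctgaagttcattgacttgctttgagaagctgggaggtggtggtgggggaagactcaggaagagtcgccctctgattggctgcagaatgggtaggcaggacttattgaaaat
Acaa1a, chr9:119341044-119341293, plus strand: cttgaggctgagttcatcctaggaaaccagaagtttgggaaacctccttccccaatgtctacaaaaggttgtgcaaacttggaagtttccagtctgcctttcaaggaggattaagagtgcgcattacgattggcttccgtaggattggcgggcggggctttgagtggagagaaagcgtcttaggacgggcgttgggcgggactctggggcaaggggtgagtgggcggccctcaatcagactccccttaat
Acox3, chr5:35582784-35583033, plus strand: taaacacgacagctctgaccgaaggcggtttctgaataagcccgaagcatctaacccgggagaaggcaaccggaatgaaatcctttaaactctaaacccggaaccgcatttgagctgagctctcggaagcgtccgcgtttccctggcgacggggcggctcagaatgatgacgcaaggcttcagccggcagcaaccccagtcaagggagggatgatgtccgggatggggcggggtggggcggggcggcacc
Acadm, chr3:153944644-153944893, minus strand: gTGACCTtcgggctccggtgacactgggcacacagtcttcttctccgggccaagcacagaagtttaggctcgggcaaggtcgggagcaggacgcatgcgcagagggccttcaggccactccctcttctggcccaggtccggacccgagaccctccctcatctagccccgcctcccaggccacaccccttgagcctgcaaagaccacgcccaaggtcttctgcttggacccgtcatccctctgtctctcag
Echs1, chr7:140116422-140116671, minus strand: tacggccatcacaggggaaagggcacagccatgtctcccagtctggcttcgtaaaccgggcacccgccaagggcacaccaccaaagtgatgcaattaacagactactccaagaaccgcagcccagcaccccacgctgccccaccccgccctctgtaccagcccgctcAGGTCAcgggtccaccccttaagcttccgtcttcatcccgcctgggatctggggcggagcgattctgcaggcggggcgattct
The windows of Acaa1a and Acaa1b shared no run longer than 8 bases, although their transcripts share many. The Acaa1b window held 41.6% G and C, the lowest of the 6, and that of Acadm held 64.0%, the highest.

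Entry into the mitochondrion is controlled by Cpt1a, which makes acylcarnitines at the outer membrane. Its level was 322, 289 and 274 CPM in WGP libraries and 302, 282 and 311 CPM in PBS libraries. The groups overlapped, and the gene missed the threshold (log2 fold change -0.02 ± 0.08, adjusted p = 0.89). Cpt2, which turns acylcarnitines back into acyl-CoA in the matrix, fell, with 13.3, 13.04 and 11.5 CPM in WGP libraries against 19.3, 19.3 and 16.3 CPM in PBS libraries. The groups did not overlap, and the log2 fold change was -0.53 ± 0.15 (adjusted p = 0.020). That adjusted p was 0.071 without WGP replicate 3, 0.084 without PBS replicate 1 and 0.067 without PBS replicate 2. Cpt1c, a brain isoform, was at 0.383 to 0.739 CPM in WGP libraries and 0.380 to 1.07 CPM in PBS libraries and did not pass. Cpt1b, the muscle isoform, was at 0.0528 to 0.492 CPM in WGP libraries and 0.156 to 0.570 CPM in PBS libraries. Exons of Gm44502, also in the count table, overlap 81.4% of the exon length of Cpt1b, so its low level is uncertain.

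The straight-chain acyl-CoA dehydrogenases, which open each mitochondrial round, were all lower in WGP libraries by their fold change, and 2 of the 4 fell. Acads, for short chains, was at 30.1, 27.4 and 29.2 CPM in WGP libraries against 41.2, 42.7 and 39.2 CPM in PBS libraries (log2 fold change -0.50 ± 0.10, adjusted p = 0.0033). Acadm, for medium chains, was at 51.1, 44.3 and 48.4 CPM in WGP libraries against 67.9, 66.8 and 58.8 CPM in PBS libraries (log2 fold change -0.43 ± 0.10, adjusted p = 0.0064). The groups of both genes were separate, with PBS replicate 3 the lowest of the PBS libraries. Acadvl, for very long chains, was at 50.4, 50.6 and 46.3 CPM in WGP libraries and 57.2, 58.9 and 57.5 CPM in PBS libraries. Its groups did not overlap either, but it missed the threshold (log2 fold change -0.24 ± 0.08, adjusted p = 0.054), and 42.9% of its exon length overlaps exons of Dvl2. Acadl, for long chains, was at 39.1, 34.6 and 42.6 CPM in WGP libraries and 46.6, 39.1 and 44.1 CPM in PBS libraries, which overlapped (adjusted p = 0.31).

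Of the 6 dehydrogenases of branched chains and other substrates, none passed, with adjusted p-values from 0.070 to 0.94 (edgeR). At an unadjusted p under 0.05, 1 of them was higher, Acadsb, which oxidises short branched acyl-CoA from isoleucine, with a log2 fold change of 0.35 ± 0.13. Its levels of 29.5 to 37.0 CPM in WGP libraries and 22.4 to 28.3 CPM in PBS libraries did not overlap. Acad8, Acad9, Acad10, Acad11 and Acad12 had log2 fold changes between -0.69 and 0.22. Acad10 and Acad12 are neighbours that share 16.8% of the 50-base words of Acad10 transcripts, so their division of reads is uncertain.

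The later steps of the mitochondrial round divided. Echs1, the short-chain enoyl-CoA hydratase, rose, with 68.8, 54.3 and 55.4 CPM in WGP libraries against 36.1, 37.1 and 48.8 CPM in PBS libraries. WGP replicate 1 was the highest library and PBS replicate 3 the nearest of the PBS libraries to the WGP group, with no overlap (log2 fold change 0.55 ± 0.14, adjusted p = 0.013). Its adjusted p was 0.070 without PBS replicate 1 and 0.058 without PBS replicate 2. Hadha, the α subunit of the mitochondrial enzyme that handles long chains after dehydrogenation, fell slightly, with 169, 164 and 156 CPM in WGP libraries against 191, 193 and 187 CPM in PBS libraries. The spread within each group was narrow (log2 fold change -0.22 ± 0.07, adjusted p = 0.026). The adjusted p of Hadha reached 0.058 to 0.102 when WGP replicate 2, WGP replicate 3, PBS replicate 1 or PBS replicate 2 was left out.

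Hadhb, the β subunit of the same enzyme, is transcribed away from Hadha, with 85 bases between the starts. It was at 23.5, 22.9 and 24.7 CPM in WGP libraries and 23.1, 30.4 and 23.3 CPM in PBS libraries, where replicate 2 alone was high, without passing (log2 fold change -0.11 ± 0.14, adjusted p = 0.58). Hadh, the dehydrogenase for short hydroxyacyl chains, was at 27.9, 29.1 and 28.0 CPM in WGP libraries and 25.3, 30.0 and 31.0 CPM in PBS libraries (adjusted p = 0.91). Acaa2, the mitochondrial thiolase, was at 58.0, 55.9 and 56.9 CPM in WGP libraries and 50.8, 44.1 and 51.6 CPM in PBS libraries. Its groups did not overlap, yet it did not pass (log2 fold change 0.22 ± 0.09, adjusted p = 0.091).

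Among the isomerases, which prepare the double bonds of unsaturated chains, Ech1 fell. This dienoyl-CoA isomerase was at 58.4, 52.2 and 54.8 CPM in WGP libraries against 91.4, 91.2 and 69.7 CPM in PBS libraries. PBS replicate 3 was again the lowest PBS library and still above the WGP group (log2 fold change -0.61 ± 0.11, adjusted p = 0.0022). Eci1, the mitochondrial enoyl-CoA isomerase, was at 12.6, 12.1 and 9.36 CPM in WGP libraries and 10.5, 14.6 and 12.2 CPM in PBS libraries (adjusted p = 0.65). Eci2, which works in both organelles, was at 35.4, 25.8 and 27.4 CPM in WGP libraries and 33.2, 35.9 and 36.7 CPM in PBS libraries (log2 fold change -0.26 ± 0.13, adjusted p = 0.16). Both overlapped between the groups. Eci3, a near copy of Eci2, had reads in 2 libraries, WGP replicate 3 at 0.383 CPM and PBS replicate 1 at 0.146 CPM.

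**Figure D3:**
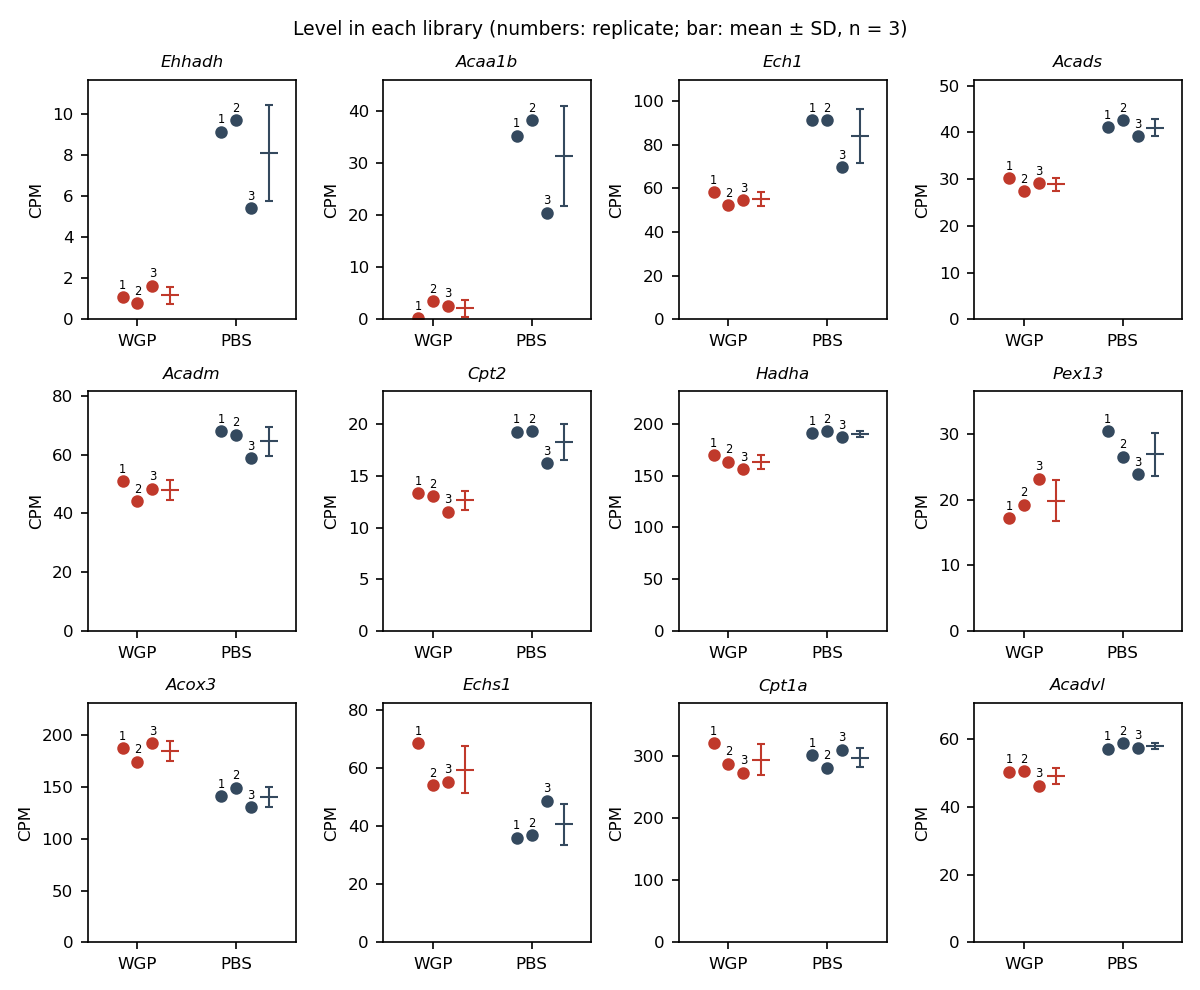
Level (CPM, linear axes from 0) of 10 of the 11 changed genes, of Cpt1a and of Acadvl in each of the 3 WGP and 3 PBS libraries, with replicate numbers and bars of mean ± SD. The groups are separate in every panel but that of Cpt1a, and PBS replicate 3 is the lowest PBS library for each of the 8 genes drawn that fell.

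Of the peroxins, only Pex13 passed the test, and its call was not stable. Pex13 sits in the peroxisomal membrane and docks the import receptors. It was at 17.2, 19.3 and 23.3 CPM in WGP libraries and 30.5, 26.6 and 23.9 CPM in PBS libraries. The groups came close to touching, at WGP replicate 3 and PBS replicate 3 (log2 fold change -0.44 ± 0.15, adjusted p = 0.047). The adjusted p was 0.136 without WGP replicate 1, 0.101 without WGP replicate 2, 0.174 without PBS replicate 1 and 0.083 without PBS replicate 2.

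Pex5, the receptor that carries most matrix enzymes, was at 50.2, 41.7 and 44.5 CPM in WGP libraries and 44.8, 41.6 and 41.6 CPM in PBS libraries (log2 fold change 0.09 ± 0.10, adjusted p = 0.53). Its groups overlapped. Pex7, the receptor for the rarer N-terminal signal, did not overlap between the groups and missed the threshold (log2 fold change 0.41 ± 0.17, adjusted p = 0.086), and Pex14, the docking partner of Pex13, did not pass. Pex3, the membrane anchor for membrane protein insertion, was at 15.2, 13.7 and 15.8 CPM in WGP libraries and 10.98, 9.45 and 12.6 CPM in PBS libraries. Every WGP library was above every PBS library, without passing the threshold (log2 fold change 0.43 ± 0.17, adjusted p = 0.076). Pex19, its soluble chaperone, was at 41.6, 42.8 and 40.6 CPM in WGP libraries and 38.5, 30.2 and 40.0 CPM in PBS libraries (adjusted p = 0.23), also without overlap. Pex16, which acts with both, had a log2 fold change of -0.22 (adjusted p = 0.28).

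Among the peroxins that ubiquitinate and recycle the receptors, Pex2, Pex6, Pex10 and Pex26 had log2 fold changes between -0.0013 and 0.11 and overlapping groups. Pex11a, of the family that elongates peroxisomes before division and the form known to be inducible by PPARα ligands in rodent liver, was at 4.38, 4.22 and 4.60 CPM in WGP libraries and 6.51, 4.57 and 7.56 CPM in PBS libraries. PBS replicate 2 lay among the WGP libraries (log2 fold change -0.50 ± 0.28, adjusted p = 0.20). Pex11g, of the same family, had a log2 fold change of -0.58 without passing (adjusted p = 0.49). Pex5l had no count in any library, which allows up to 3 counts in each by counting error alone.

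Levels of different genes were compared per kilobase of the longest coding transcript. Cpt1a had the highest level in both groups, 68.3 ± 5.71 CPM per kilobase in WGP libraries and 69.1 ± 3.47 in PBS libraries (SD, n = 3 each). In PBS libraries Ech1 followed at 66.4 ± 9.86 CPM per kilobase, within the spread of Cpt1a. In WGP libraries Acox3 followed at 46.4 ± 2.34 CPM per kilobase and Ech1 at 43.5 ± 2.44, and the ranges of mean ± SD overlapped. Acaa1b stood at 1.25 ± 1.00 CPM per kilobase in WGP libraries (rank 37 of 46) and 18.6 ± 5.65 in PBS libraries (rank 14). The highest peroxins reached 14.7 CPM per kilobase in WGP libraries (Pex19) and 14.3 in PBS libraries (Pex14). These orders depend on the length used. A length chosen after seeing the data was that of all exons joined. Per kilobase of it, the mean of Cpt1a was still the highest, at 38.6 in WGP libraries and 39.0 in PBS libraries. It was followed by Acaa2 (37.6) and Ech1 (24.1) in WGP libraries and by Ech1 (36.8) and Acaa2 (32.2) in PBS libraries. Acaa2 in WGP libraries and Ech1 in PBS libraries came close to Cpt1a, and no spread was computed for this length, so its first rank is uncertain. Acox3 was then at 16.0 CPM per kilobase in WGP libraries, and the highest peroxins were Pex5 in WGP libraries (11.5) and Pex6 in PBS libraries (11.3). The summed level of all 17 peroxins was 298 to 315 CPM in WGP libraries and 285 to 312 CPM in PBS libraries, which overlapped. That of the 29 enzymes was 1268 to 1370 CPM in WGP libraries and 1387 to 1478 CPM in PBS libraries, without overlap.

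**Figure D4:**
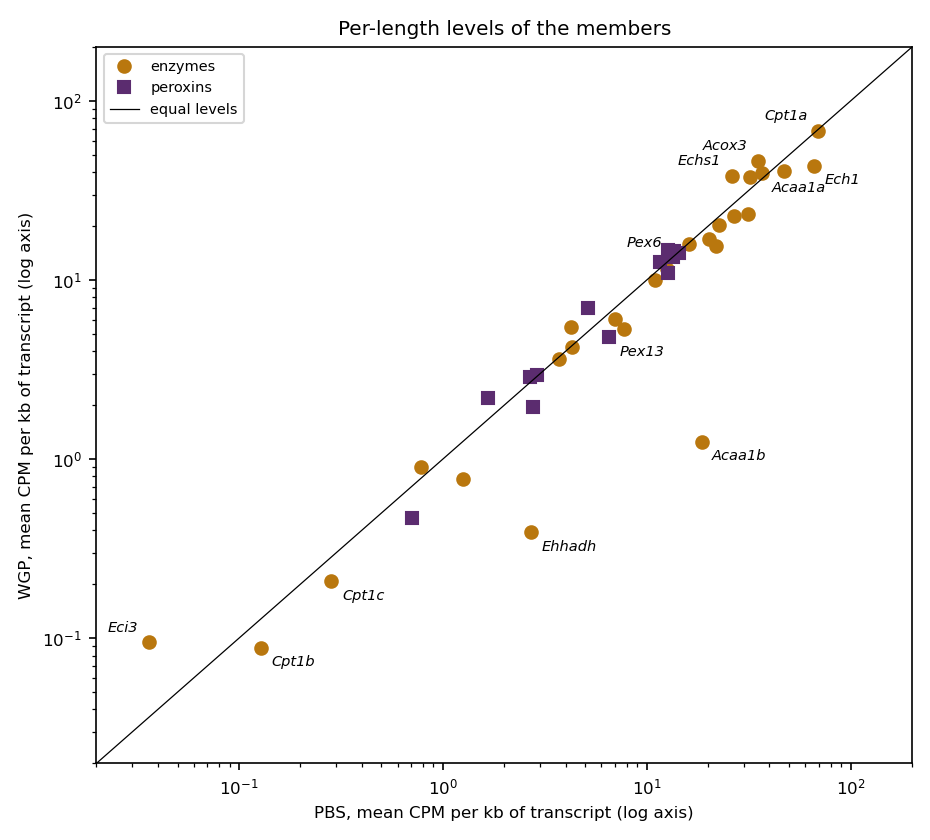
Mean level of each gene drawn in WGP libraries (vertical) against PBS libraries (horizontal), in CPM per kilobase of the longest coding transcript on log axes, with enzymes as circles, peroxins as squares and a line of equal levels. Acaa1b (1.25 in WGP, 18.6 in PBS) and Ehhadh (0.39 in WGP, 2.71 in PBS) lie farthest below the line among the genes tested. Acox2 and Pex5l, at 0 in a group, are not drawn.

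The genes around these enzymes were read from lists of the same pathway. The counts called in each list stand beside 15.2% of all genes tested that rose and 15.7% that fell. No list was tested as a set. Of 14 genes of fatty acid uptake, binding and activation that were tested, 6 fell and 3 rose. Fabp4, a fatty acid binding protein, averaged 21.4 ± 1.06 CPM in WGP libraries and 75.5 ± 9.41 CPM in PBS libraries (log2 fold change -1.82 ± 0.11, adjusted p = 9e-06). Cd36, the scavenger receptor that takes up fatty acids, fell by 1.10 ± 0.08 on the log2 scale, the transporter Slc27a1 fell by 1.61 ± 0.15 and Fabp5 fell by 1.23 ± 0.14. Fabp4 and Fabp5 also stand on the alveolar macrophage list. The number that rose was 1 without WGP replicate 2, PBS replicate 1 or PBS replicate 2, and 0 without PBS replicates 1 and 3.

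Of 8 carnitine transport and shuttle partners tested, 2 rose and 0 fell (0 also at an unadjusted p under 0.05, in DESeq2 and in limma-voom). Slc22a4, a carrier of ergothioneine and carnitine, was at 8.31, 5.81 and 8.10 CPM in WGP libraries and 2.19, 1.40 and 3.42 CPM in PBS libraries (log2 fold change 1.66 ± 0.36, adjusted p = 0.0055). Acaca, the acetyl-CoA carboxylase whose product malonyl-CoA inhibits Cpt1 enzymes, rose by 0.38 ± 0.11 on the log2 scale (adjusted p = 0.020). Its adjusted p was 0.060 to 0.073 without WGP replicate 3, PBS replicate 1 or PBS replicate 3. Of 17 genes of electron transfer and accessory mitochondrial oxidation, 2 rose and 1 fell. Etfa, which takes electrons from the acyl-CoA dehydrogenases, fell by 0.40 ± 0.10 on the log2 scale (adjusted p = 0.013, and 0.056 without WGP replicate 3). Auh, a hydratase of leucine breakdown, rose by 0.52 ± 0.12 on the same scale, and Hibch, of valine breakdown, rose by 0.79 ± 0.26 (adjusted p = 0.043, and 0.061 to 0.159 when any library but WGP replicate 2 was left out). Without WGP replicate 1, WGP replicate 3, PBS replicate 1 or PBS replicate 3, 1 gene of that list rose. 0 fell without WGP replicate 3, and 2 fell without WGP replicate 2 or PBS replicate 2.

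Peroxisomal matrix enzymes outside the chosen families divided, with 7 of 22 tested rising and 3 falling. Prdx5, a peroxiredoxin of peroxisomes and mitochondria, averaged 456 CPM in WGP libraries and 239 CPM in PBS libraries (log2 fold change 0.93 ± 0.08, adjusted p = 3.8e-05). Idh1, which makes NADPH in cytosol and peroxisome, rose by 0.78 on the log2 scale (adjusted p = 9.6e-05), and Isoc1 rose by 0.67. Phyh, which begins the α-oxidation of phytanic acid, was at 91.7, 91.4 and 99.4 CPM in WGP libraries and 61.0, 66.6 and 68.0 CPM in PBS libraries (log2 fold change 0.53 ± 0.08, adjusted p = 0.00079). Catalase (Cat), which removes the hydrogen peroxide that the acyl-CoA oxidases make, was at 118, 124 and 115 CPM in WGP libraries and 151, 170 and 151 CPM in PBS libraries (log2 fold change -0.40 ± 0.08, adjusted p = 0.0025). The number that rose was 4 without PBS replicate 1 or PBS replicate 3. Hsd17b4, the other peroxisomal bifunctional enzyme and chosen for description after its values were seen, fell by 0.47 ± 0.08 on the log2 scale, with 81.7, 89.4 and 87.6 CPM in WGP libraries and 119, 129 and 111 CPM in PBS libraries.

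Of 17 peroxisomal membrane transport and division genes tested, 2 rose and 3 fell. Abcd3, a transporter of acyl-CoA into peroxisomes, fell by 0.47 ± 0.13 on the log2 scale (adjusted p = 0.021, and 0.054 without WGP replicate 3, 0.087 without PBS replicate 1 or 0.052 without PBS replicate 3). Its relative Abcd2 did not pass (-0.01 ± 0.08, adjusted p = 0.94). Mavs, an antiviral adaptor found on mitochondria and peroxisomes, fell by 0.94 ± 0.13. Of the fission genes, the adaptor Fis1 rose by 0.28 on the log2 scale (adjusted p = 0.0098, and 0.055 without PBS replicate 1). Dnm1l, the GTPase that cuts the organelle, fell by 0.45 (adjusted p = 0.014, and 0.062 without WGP replicate 3 or 0.058 without PBS replicate 2). The number that fell was 1 without WGP replicate 3, and without PBS replicate 1 it was 2, with 1 that rose.

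Of 22 regulators tested, 5 rose and 5 fell. Pparg, the PPAR of lipid storage and of alveolar macrophages, was at 46.2, 50.1 and 55.6 CPM in WGP libraries and 122, 133 and 97.5 CPM in PBS libraries (log2 fold change -1.21 ± 0.12, adjusted p = 8.5e-05). Ppard, its relative, moved the other way, with 66.2, 78.2 and 71.6 CPM in WGP libraries and 36.4, 46.6 and 45.8 CPM in PBS libraries (log2 fold change 0.75 ± 0.11, adjusted p = 0.00076). Neither pair of groups overlapped. Rxra, the common partner of the PPARs, was at 132, 131 and 128 CPM in WGP libraries and 193, 205 and 158 CPM in PBS libraries (chosen for description after its values were seen, log2 fold change -0.51 ± 0.09, adjusted p = 0.0023). Tfe3, a transcription factor of lysosomal genes, rose by 0.48 on the log2 scale (adjusted p = 0.0005). Ppara and Ppargc1a, the PPAR and coactivator best known in liver oxidation, had at most 9 counts in any library and were not tested. Ppargc1b, the related coactivator, had a log2 fold change of -0.44 ± 0.33 (adjusted p = 0.33). The number of regulators that fell was 3 without WGP replicate 2 or PBS replicate 2.

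Of 14 other PPAR target genes tested, 10 fell and 0 rose (0 also at an unadjusted p under 0.05, in DESeq2 and in limma-voom), and the median log2 fold change was -1.37. All 14 were lower in every WGP library than in any PBS library, beside 24.9% of all genes tested, Ucp2 by a narrow margin (log2 fold change -0.03, adjusted p = 0.76). Fads1, a fatty acid desaturase, was at 14.1, 11.1 and 10.1 CPM in WGP libraries and 38.5, 35.7 and 36.3 CPM in PBS libraries (log2 fold change -1.65 ± 0.14, adjusted p = 3.8e-05). Lpl, lipoprotein lipase, averaged 197 CPM in WGP libraries and 574 CPM in PBS libraries (log2 fold change -1.54 ± 0.17, adjusted p = 0.00088). Plin2, a lipid droplet coat protein, fell by 0.71 ± 0.11 on the log2 scale, and Acot1, an acyl-CoA thioesterase, fell by 1.79 ± 0.35. Without WGP replicate 3 or PBS replicate 2, 6 genes of that list fell, and without PBS replicates 1 and 3, 5 did. Pparg, Lpl and Cidec stand on the alveolar macrophage list too, 18 of whose 21 genes fell, and the part of alveolar macrophage RNA in these falls was not tested.

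**Figure D5:**
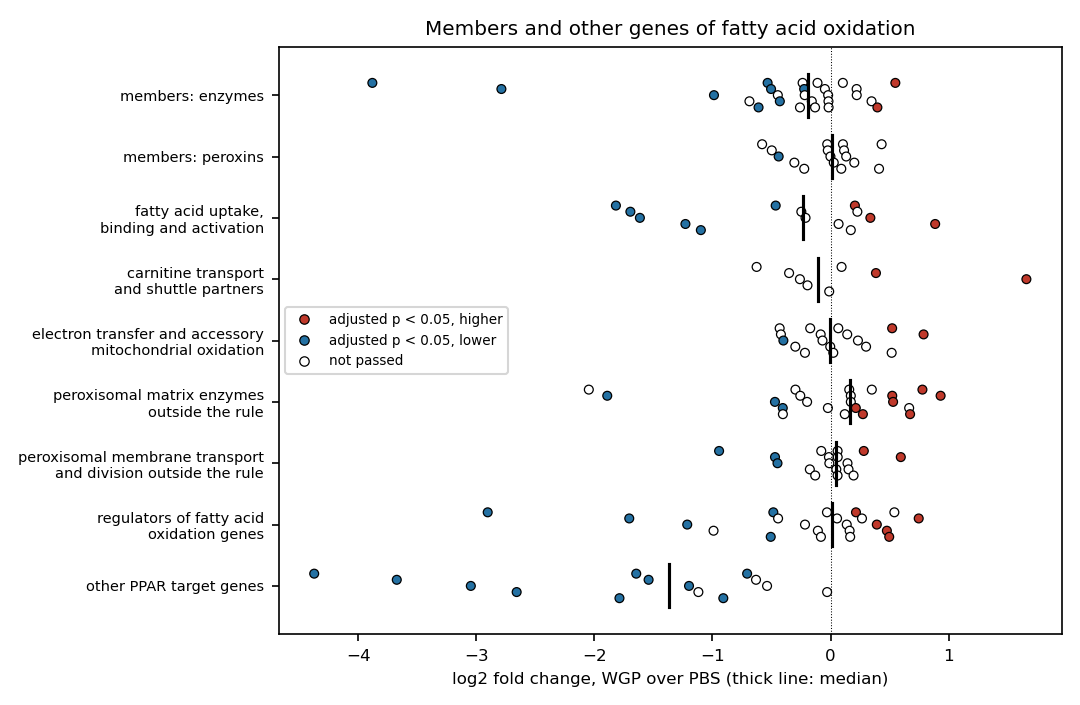
Log2 fold change of WGP over PBS for each tested gene of the chosen enzymes and peroxins and of 7 pathway lists, where filled points have an adjusted p under 0.05 and thick lines are medians. The median of the other PPAR target genes is -1.37, and those of the other lists lie between -0.23 and 0.16.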

How the data were processed

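Bulk polyA RNA libraries of interstitial macrophages, 3 from WGP-treated and 3 from PBS-treated mice, were analysed as the gene counts that the authors deposited, which are whole numbers with a different total in each library. The submitters' processing notes name GRCm38 (mm10), FastQC 0.10.1 and HTSeq 0.10.0. Aligner, annotation and strand setting: not given in the sources used here, so reads of overlapping genes cannot be told apart. The exons of 23 of the chosen genes, 6 of them changed genes, overlap those of another annotated gene. For 15 of them, 5 of them changed genes, the other gene is in the count table, and the overlap of those changed genes is at most 11.4% of exon length.

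GENCODE M21 (GRCm38) gave symbols to 21939 of 21965 identifiers. Groups came from the sample titles. The comparison of WGP over PBS was fitted across genes with edgeR 4.0.16 (R 4.3.3), using filterByExpr, TMM scaling and the robust two-sided quasi-likelihood test. P-values were adjusted by Benjamini-Hochberg for 12305 genes, with a threshold of 0.05. A permutation of 3 against 3 libraries cannot go below p = 0.1, so no gene was tested outside this model. CPM are on TMM-scaled library sizes, and the SE is the log2 fold change divided by the square root of F. The procedure was tested on simulated data with changes of known size. It recovered 22 of 79 changes of 1.5-fold, 38 of 58 of 2-fold and 54 of 63 of 4-fold. It also gave 16 false calls among 12105 unchanged genes. Most changes of 1.5-fold were thus missed in this procedure test. There 12105 of 12305 genes were unchanged, whereas 3809 genes were called in the data, and recovery at that larger share was not tested. A gene that did not pass may still differ by such an amount where its SE is wide. The SE was 0.59 for Pex11g (log2 fold change -0.58) but 0.08 for Cpt1a (log2 fold change -0.02), and neither passed. Alternatives used DESeq2 1.42.0 and limma 3.58.1 (voom), other scalings and filters, a replicate block, a Y-linked covariate and left-out libraries.

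The genes and lists were chosen with earlier results of these data known. Named were the changed genes, further genes fixed by name, up to 4 genes of each pathway list by smallest p, the PPAR genes, their coactivators, Cat, Abcd2 and Abcd3, apart from genes that are not reported here. Promoter sequences are from RefSeq (GRCm38.p6). Protein sequences were not used here. The limits for genes with no count cover counting error only, while the SE and SD include the spread between libraries.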

Additional observations from a re-analysis of the deposited data

How the results depend on the processing

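Of the 11 changed genes, 11 kept their call under DESeq2, limma-voom, the other scalings and both other filters, and none changed direction under any alternative. Leaving out 1 library gave 2491 to 3717 changed genes of all tested (3809 with all libraries), 1 to 2 of the chosen genes that rose, 5 to 9 that fell, and a median log2 fold change of -0.13 to -0.03. Without PBS replicates 1 and 3, whose Y-linked levels were lowest, 1820 genes changed, and 1 chosen gene rose and 5 fell. At an adjusted p under 0.1, 6 rose. The labels do not say whether replicate numbers pair the libraries. Same-numbered libraries correlated at -0.06, -0.08 and -0.05 in their deviations from the group means, and the others at -0.04 to 0.11. With 3 libraries per group, these values cannot decide whether the numbers pair them. With the replicate block, 3185 genes changed, 2 chosen genes rose and 7 fell (median -0.07), with the calls of Pex13 and Acaa1b lost. Among the lists, the block left 6 other PPAR targets and 3 regulators that fell, and 4 matrix enzymes, 1 uptake gene, 1 carnitine partner and 1 electron transfer gene that rose. A covariate of Y-linked levels left 2 that rose and 7 that fell, no electron transfer gene that changed, 4 matrix enzymes and 1 carnitine partner that rose, and 7 epithelial and 3 neutrophil markers that fell. Interstitial markers that fell numbered 12 in limma-voom and without robust estimation and 11 in DESeq2, against 6. Pex13 also lost its call without robust estimation. Library sizes alone moved the median log2 fold change of all genes to -0.12 and gave 33.4% of changed genes as higher, against 49.2% with TMM. Upper quartile scaling gave 40.0%. With library sizes alone the median of the chosen genes was -0.18 and that of the peroxins -0.087, 4 matrix enzymes and 1 uptake gene rose, and 1 carnitine partner rose and 1 fell, so changes within about that shift depend on the scaling. Log2 fold changes near 0 changed sign without passing the test in any case. Under library sizes alone Pex5 was at -0.011. Under the covariate for Y-linked levels Cpt1a was at 0.034, Hadh at 0.046 and Abcd2 at 0.061. Leaving out both PBS replicates 1 and 3 put Cpt1a at 0.068, Abcd2 at 0.037 and Acaa1a at -0.042. Leaving out 1 library gave -0.083 to 0.037 for Cpt1a, -0.11 to 0.034 for Hadh, -0.074 to 0.044 for Abcd2 and -0.18 to 0.024 for Hadhb. The cause of these differences was not tested, though fewer libraries leave fewer degrees of freedom. At these totals genes such as Ehhadh and Acaa1b rest on few reads in WGP libraries, and genes with no count have an upper limit of 3 counts per library.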
